A study of Homo sapiens with 6 samples.

Results

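Box C/D snoRNAs were described here as bound RNAs of GAPDH in MOLM-13 cells, an established human acute myeloid leukaemia line. GAPDH is a glycolytic enzyme that also binds RNA, and it was precipitated with an antibody after UV crosslinking (CLIP-seq), with the bound RNA trimmed by RNase T1, which cuts after G. The cells had been kept in medium with galactose in place of glucose, in low glucose or in normal glucose, with no other treatment named, and 2 samples were made for each of the 3 conditions. The authors joined the 2 samples of a condition into 1 list of binding peaks, which gives positions and the gene names at each position, but no strand, read count or score. Whether these samples came from separate cultures is not given.

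The RNAs are all genes in these lists whose symbol starts with SNORD, without SNORD32A, SNORD33 and SNORD35A of the RPL13A locus. They were 19 of 947 genes, with 26 of 1316 peaks, and no filter was applied to them. They made up 6.42% of the 296 SNORD symbols in GENCODE release 44. Because each condition has 1 joined list, differences between lists could not be set against a spread between replicates, no test of a condition was possible, and the 95% intervals below (exact, Clopper-Pearson) cover counting error over peaks, regions or RNAs only.

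Box C/D snoRNAs are short RNAs of the nucleolus and Cajal bodies, most of which are cut out of introns of a host gene. Box C near the 5′ end and box D near the 3′ end come together in a folded stem that holds the proteins SNU13, NOP56, NOP58 and fibrillarin, and these proteins protect the ends of the RNA from exonucleases. Most of the RNAs pair with rRNA or U6 snRNA and direct the methylation of a ribose there, while a few, such as U3, act in the cleavage of the rRNA precursor.

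Where the peaks lay relative to the boxes can be read from the sequences of the RNAs. They are given from hg38 by the bounds of GENCODE, in DNA letters, 5′ to 3′ on the strand of the RNA, and capitals mark box C (the best match to TGATGA that starts in the first 25 nt) and box D (the best match to CTGA in the last 25 nt). SNORD94 (chr2:86135870-86136006, plus strand) and SNORD22 (chr11:62852910-62853035, minus strand) are shown because they were in all 3 lists. Of the RNAs in 2 lists, SNORD96A (chr5:181241814-181241892, minus) is shown, while SNORD13 and SNORD55 are not.
SNORD94: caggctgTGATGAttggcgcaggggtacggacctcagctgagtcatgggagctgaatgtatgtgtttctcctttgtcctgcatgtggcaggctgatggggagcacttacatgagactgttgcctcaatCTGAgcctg
SNORD22: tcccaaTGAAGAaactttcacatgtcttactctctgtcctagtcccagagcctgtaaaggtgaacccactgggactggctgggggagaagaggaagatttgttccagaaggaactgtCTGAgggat
SNORD96A: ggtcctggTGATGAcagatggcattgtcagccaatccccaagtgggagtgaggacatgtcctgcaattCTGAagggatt
SNORD10 (chr17:7576811-7576952, plus), SNORD83A (chr22:39315213-39315307, minus), SNORD83B (chr22:39313819-39313911, minus), SNORD88A (chr19:50799442-50799532, minus) and SNORD88C (chr19:50802328-50802418, minus) are shown because each had sites at both ends in normal glucose. SNORD55 had such sites too and is not shown.
SNORD10: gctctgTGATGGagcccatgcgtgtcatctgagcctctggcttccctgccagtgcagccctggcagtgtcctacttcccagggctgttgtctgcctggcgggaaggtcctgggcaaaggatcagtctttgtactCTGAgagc
SNORD83A: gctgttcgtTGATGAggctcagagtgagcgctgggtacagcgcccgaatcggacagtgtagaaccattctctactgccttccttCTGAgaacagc
SNORD83B: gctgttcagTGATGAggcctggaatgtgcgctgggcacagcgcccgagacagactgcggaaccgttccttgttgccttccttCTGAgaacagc
SNORD88A: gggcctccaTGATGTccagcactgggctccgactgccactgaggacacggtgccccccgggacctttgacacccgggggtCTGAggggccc
SNORD88C: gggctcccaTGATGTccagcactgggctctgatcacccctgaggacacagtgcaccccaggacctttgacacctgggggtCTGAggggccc
SNORD67 (chr11:46762389-46762499, minus) is shown for a peak that began within the RNA and ended at its last base, and SNORD14D (chr11:123058909-123058995, minus) for a box D that departs from CTGA and a site at neither end.
SNORD67: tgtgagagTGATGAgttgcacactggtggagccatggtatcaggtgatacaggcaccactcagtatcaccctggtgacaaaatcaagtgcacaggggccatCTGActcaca
SNORD14D: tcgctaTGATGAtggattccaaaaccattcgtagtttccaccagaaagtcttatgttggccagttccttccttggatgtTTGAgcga

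The RNAs held the boxes that their symbols imply. With SNORD3A left aside, whose gene in GENCODE is longer than the RNA, box C was found exactly or with 1 mismatch in 18 of 18 RNAs and exactly in 13 (72.2%). Box D was exact in 17 of 18 (94.4%), and SNORD14D had TTGA in its place. The same search over all 314 annotated SNORD genes, on the strand of the RNA, found an exact box C in 68.2%, a box C with up to 1 mismatch in 90.1% and an exact box D in 90.1%. The 2 motifs do not overlap each other, and a match is a description of the letters only.

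Normal glucose had the most box C/D snoRNAs. There were 5 peaks on 5 RNAs among the 337 peaks of the galactose list (1.48%, interval 0.483 to 3.43), 6 peaks on 6 RNAs among the 484 of the low glucose list (1.24%, 0.456 to 2.68) and 15 peaks on 15 RNAs among the 495 of the normal glucose list (3.03%, 1.71 to 4.95). The intervals of the 3 shares overlapped. The low and normal glucose lists were of nearly equal size and held 6 and 15 of these peaks. The box H/ACA snoRNAs and scaRNAs, the other class of guide RNAs, held 18 galactose peaks (5.34%, 3.2 to 8.31), 23 low glucose peaks (4.75%, 3.04 to 7.05) and 17 normal glucose peaks (3.43%, 2.01 to 5.44). Their share was lowest in the list in which that of box C/D snoRNAs was highest, and these intervals overlapped too. The amount of each snoRNA in the cells and the depth of the libraries are unknown, and their part in these counts was not tested.

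**Figure D1:**
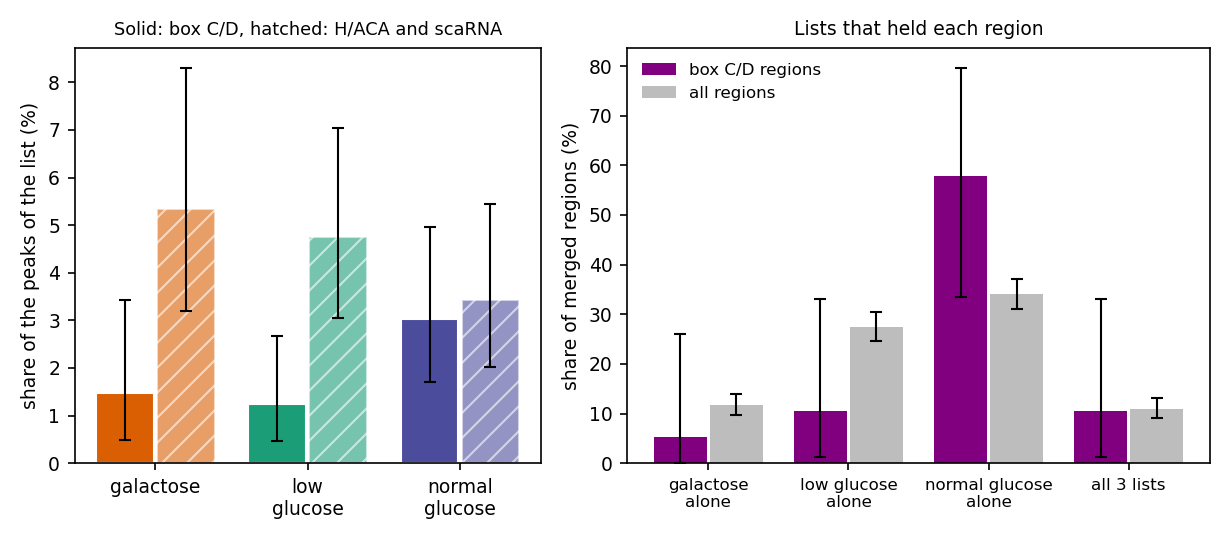
Left, share of the peaks of each list (%) that lay on box C/D snoRNAs (solid) and on box H/ACA snoRNAs and scaRNAs (hatched). Right, share of merged regions (%) found in 1 list alone or in all 3 lists, for the 19 box C/D regions (purple) and all 951 regions (grey). Bars are shares and lines are exact 95% intervals. Normal glucose alone holds 57.9% of the box C/D regions and 34.1% of all regions.

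Overlapping peaks of the 3 lists merged into 19 box C/D regions, 1 for each RNA, among 951 regions in all. SNORD94 and SNORD22 were in all 3 lists, 2 of 19 regions (10.5%, interval 1.3 to 33.1) against 11.0% of all regions. This count was 4 with the RPL13A snoRNAs included, and 1 with only peaks whose middle lay inside the RNA, a setting that left galactose with 2 of its 5 peaks. SNORD13 was in the galactose and low glucose lists, SNORD96A in galactose and normal glucose, and SNORD55 in low and normal glucose. The other 14 regions (73.7%) were in 1 list alone, against 73.3% of all regions, so sharing between lists was near the background. Of these 14, SNORD66 was in galactose alone (5.26% of the regions, against 11.7% of all regions), and SNORD67 and SNORD17 were in low glucose alone (10.5%, against 27.5%). The remaining 11 regions were in normal glucose alone (57.9%, 33.5 to 79.7), against 34.1% of all regions (31.1 to 37.2) and 9 of the 39 box H/ACA and scaRNA regions (23.1%, 11.1 to 39.3). These 11 were SNORD3A, SNORD10, SNORD14C, SNORD14D, SNORD23, SNORD35B, SNORD83A, SNORD83B, SNORD88A, SNORD88C and SNORD104. Among them, SNORD14C and SNORD14D, SNORD83A and SNORD83B, and SNORD88A and SNORD88C are pairs of similar copies that share a host gene. The interval counts such copies as independent regions, which they may not be. The interval of the 11 reaches below the upper bound of the background, and no test was made of the difference.

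The place of the sites along each RNA was read from the borders of its peak. The smallest peaks were 101 nt wide, which is 1 site with 50 nt on either side, and they were 743 of the 1316 peaks. No peak was narrower, so each wider peak was assumed to have been made by the same extension and to have a site 50 nt inside each border. These edge sites are given below as positions along the RNA, with its first base as 1. For wide peaks, the results on both ends and on the distances to the boxes rest on this assumption. Sites between the edge sites of a wide peak are not given in the lists. The strand was that of the annotated snoRNA. Many edge sites at the 3′ end and some at the 5′ end fell just outside the annotated RNA, and what these sites mark was not tested.

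**Figure D2:**
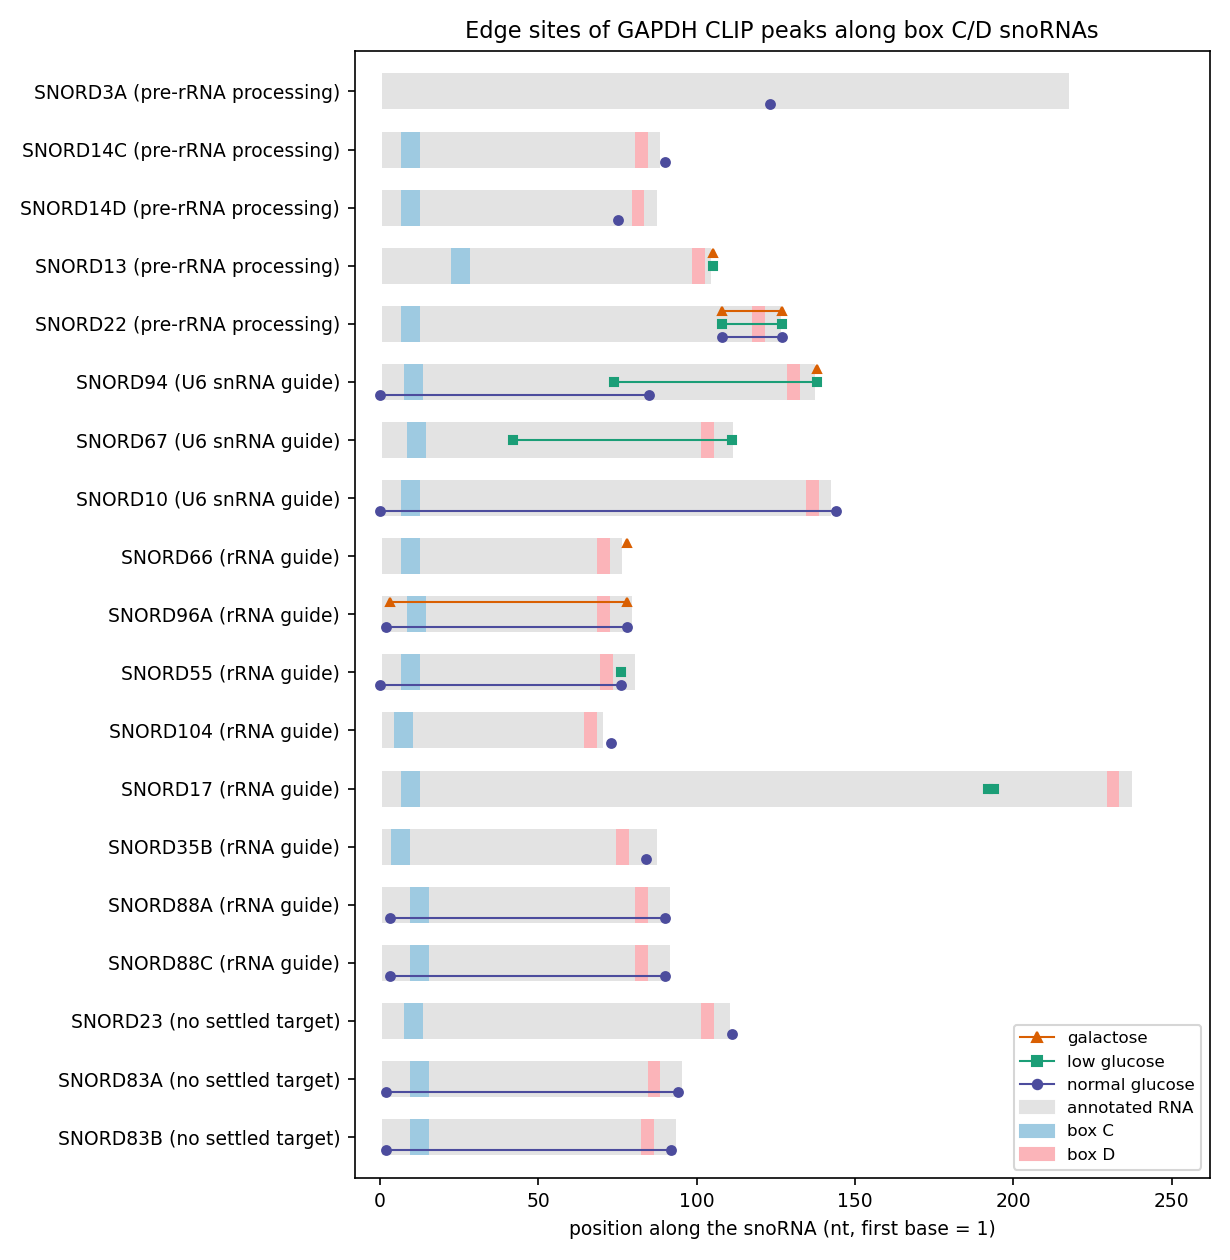
Edge sites of each peak along the 19 box C/D snoRNAs (x axis, nt from the first base of the RNA), with galactose as triangles, low glucose as squares and normal glucose as circles. A line joins the first and last site of 1 peak, grey bars are the annotated RNAs (SNORD3A by RefSeq), and blue and pink blocks are boxes C and D. Most peaks end just beyond box D, other than those of SNORD3A, SNORD14D and SNORD17 and that of SNORD94 in normal glucose.

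The RNAs that act in the processing of rRNA precursors were 5, and peaks were found on 2 of them in galactose, on 2 in low glucose and on 4 in normal glucose. SNORD22 (U22, needed for the maturation of 18S rRNA in Xenopus oocytes) had the same peak in all 3 lists (chr11:62852859-62852978, 120 nt), with edge sites at 108 and 127 of an RNA of 126 nt. Of the 2 RNAs in all 3 lists it was the only one with identical borders in each. Outside the 19 RNAs, SNORD32A of the RPL13A locus and the box H/ACA RNA SNORA64 also had identical borders in 3 lists. SNORD13 (U13, which pairs with 18S rRNA for its acetylation by NAT10) likewise had 1 peak that the galactose and low glucose lists shared to the base (chr8:33513529-33513629, 101 nt), with a single site at 105, the base after its last, and no peak in normal glucose.

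SNORD14C and SNORD14D are copies of U14, which acts in 18S rRNA processing and methylation, and both lie in introns of HSPA8, the gene of the constitutive HSC70 chaperone. Both had 1 peak of 101 nt in normal glucose and none in galactose or low glucose. The site of SNORD14C (chr11:123059283-123059383) was at 90, past the end of its 88 nt, while that of SNORD14D (chr11:123058871-123058971) was at 75 of 87 nt. Over 91 aligned positions the RNAs were 79.1% identical. The site of SNORD14D lay 8 nt before the last base of its TTGA, so this pair of copies from 1 host differed in where the site lay.

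SNORD3A is U3, an abundant box C/D snoRNA that is needed for the first cleavages of the rRNA precursor. It had 1 peak, in normal glucose (chr17:19188088-19188188, 101 nt), with its site at 123 of the 217 nt given by RefSeq. Every 30-mer of this peak recurs in the genome (100%), so SNORD3A cannot be told apart here from other copies of U3. No 30-mer recurred in 23 of the 26 peaks, and SNORD3A was the only one with a share over 50%.

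The RNAs that guide the methylation of U6 snRNA were SNORD94, SNORD67 and SNORD10, with peaks on 1, 2 and 2 of them in galactose, low and normal glucose. SNORD94 had a different peak in each list. In galactose it was 101 nt wide with a single site at 138 (chr2:86135957-86136057), the base after the last of its 137 nt. In low glucose the peak kept that 3′ site and began at 74 (chr2:86135893-86136057, 165 nt). In normal glucose it ran from 0, the base before the RNA, to 85 (chr2:86135819-86136004, 186 nt). The region was thus shared by 3 lists, but the site at its 3′ end was an edge in galactose and low glucose only, and the 3′ edge of normal glucose lay 53 nt before it. SNORD67 had a peak in low glucose alone (chr11:46762339-46762508, 170 nt), with sites at 42 and at 111, its last base. SNORD10 had the widest peak of all 26, in normal glucose alone (chr17:7576760-7577004, 245 nt), with sites at 0 and at 144 of 142 nt.

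The RNAs that guide rRNA methylation were 8, and peaks were found on 2 of them in galactose, on 2 in low glucose and on 6 in normal glucose. All 19 RNAs together had 5, 6 and 15 in the same lists, so the counts by role set no role apart. SNORD96A, which guides the rRNA that lies between 18S and 28S rRNA in the precursor, had nearly the same peak in galactose (chr5:181241765-181241940, sites at 3 and 78 of 79 nt) and in normal glucose (chr5:181241765-181241941, sites at 2 and 78). These borders differed by 1 nt at the 5′ site. SNORD55, a guide of 28S rRNA, had its 3′ site at 76 of 80 nt in both low glucose (a peak of 101 nt) and normal glucose (177 nt), and only the peak of normal glucose also had a site at 0. SNORD66, a guide of 18S rRNA, had a peak in galactose alone (chr3:184325723-184325823), with a single site at 78 of 76 nt. It was the only box C/D snoRNA that was in the galactose list and in neither glucose list.

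The other 5 guides of this group act, or are predicted to act, on 28S rRNA. SNORD17 had a peak in low glucose alone (chr20:17962703-17962805, 103 nt) with sites at 192 and 194 of 237 nt, well before its box D. SNORD104 (chr17:64146105-64146205) and SNORD35B had single sites in normal glucose, at 73 of 70 nt and at 84 of 87 nt. SNORD88A (chr19:50799393-50799580) and SNORD88C (chr19:50802279-50802466), which are 87.9% identical over 91 positions, had peaks of the same width in normal glucose alone, 188 nt, with sites at 3 and 90 of 91 nt in each. These copies had the same sites, unlike the U14 copies.

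For 3 RNAs no target is settled, and their peaks were in normal glucose alone. SNORD23 had a single site at 111 of 110 nt (chr19:47755913-47756013). SNORD83A (chr22:39315164-39315356, 193 nt) and SNORD83B (chr22:39313770-39313960, 191 nt), 78.9% identical over 95 positions, had sites at 2 and 94 of 95 nt and at 2 and 92 of 93 nt. In each of these copies the first site was the second base and the last site the base before the last.

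Most peaks had an edge site at or near the 3′ end of the RNA. An edge site lay within 5 nt of the annotated 3′ end in 22 of 26 peaks (84.6%, interval 65.1 to 95.6), which were 5 of the 5 galactose peaks, 5 of the 6 low glucose peaks and 12 of the 15 normal glucose peaks. Counted by RNA, this held for 16 of 19 (84.2%, 60.4 to 96.6). The distances from the last base ran from -4 to 3 nt, with a median of 1, the base after the RNA. The site lay past the last base by 1 nt in 8 of the 22 peaks, by 2 nt in 3 and by 3 nt in 1. Among the box H/ACA snoRNAs and scaRNAs, 19 of 58 peaks had such a site (32.8%, 21.0 to 46.3), made up of 7 of the 18 galactose, 10 of the 23 low glucose and 2 of the 17 normal glucose peaks, and by RNA 14 of 32 (43.8%, 26.4 to 62.3). The intervals by peak did not overlap and those by RNA did. Peaks on 1 RNA in different lists are not independent, and no test was made between the classes.

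Fewer peaks had an edge site at or near the 5′ end, and most of these were in normal glucose. An edge site lay within 5 nt of the annotated 5′ end in 1 of the 5 galactose peaks (SNORD96A), 0 of the 6 low glucose peaks (which allows a share of up to 45.9%) and 8 of the 15 normal glucose peaks (53.3%, 26.6 to 78.7). In total this was 9 of 26 peaks (34.6%, 17.2 to 55.7), and 8 of these, all but SNORD94, had a site at the 3′ end too. The box H/ACA and scaRNA peaks with a 5′ site were 6 of the 18 galactose, 2 of the 23 low glucose and 8 of the 17 normal glucose peaks, so that low glucose had the lowest share in both classes. Peaks with a site at neither end were 3 of 26 for box C/D snoRNAs (SNORD17 in low glucose, SNORD14D and SNORD3A in normal glucose) and 24 of 58 for the other class.

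**Figure D3:**
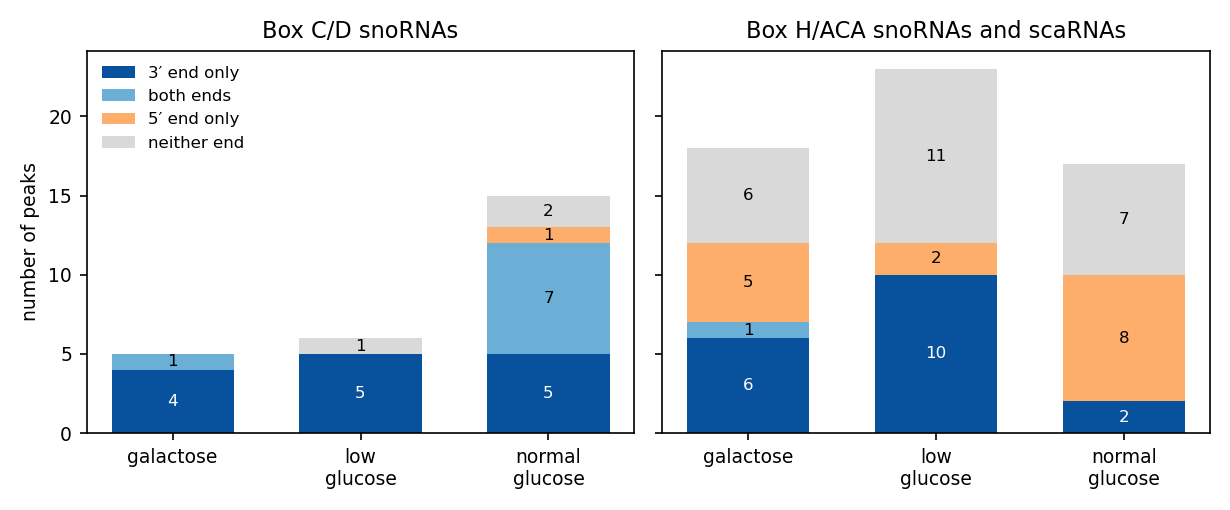
Number of peaks (y axis) in each list with an edge site within 5 nt of the 3′ end, of both ends, of the 5′ end or of neither end of the annotated RNA, for box C/D snoRNAs (left) and box H/ACA snoRNAs and scaRNAs (right). For box C/D snoRNAs 22 of 26 peaks have a 3′ site, and 7 of the 8 peaks with both are in normal glucose.

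The sites at the 3′ end followed box D more closely than the annotated end. In 17 of the 22 peaks, on 13 of 16 RNAs, the last site was exactly 6 nt after the last base of box D. It was 5 nt after it in SNORD104 and 3 nt after it in the 4 peaks of SNORD13 and SNORD55. In the sequences given above, this position is counted from the last capital, and in some RNAs it falls just past the printed end. SNORD104, SNORD13 and SNORD55, which depart from 6 nt, are not among those sequences. SNORD35B shows the difference, since its annotated RNA runs 9 nt past box D and its site was 3 nt before that end and 6 nt after the box. At the other end, the first site lay 6 to 8 nt before the first base of box C in all 9 peaks with a 5′ site, and 7 nt before it in 5 of them. The end sites lay outside both boxes, but their choice within 5 nt of an annotated end fixes much of this. Box C began at base 7 or later in each RNA with a 5′ site, so such a site had to lie before it. Box D likewise ended close to the 3′ end, which left few places before it. That the sites lay outside the boxes is therefore no result of its own.

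**Figure D4:**
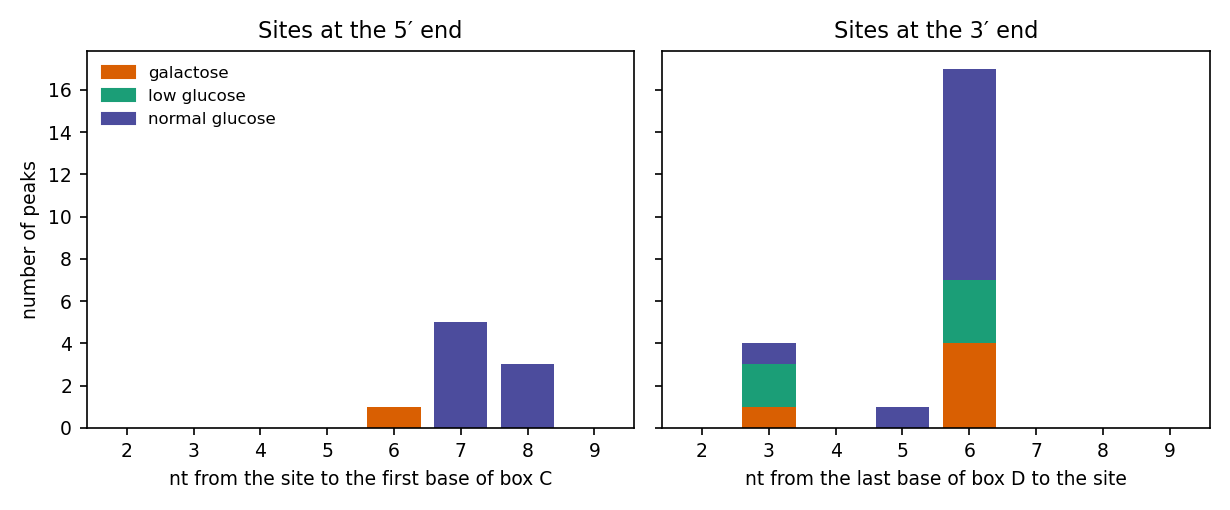
Number of peaks (y axis) by the distance in nt between the 5′ edge site and the first base of box C (left, 9 peaks) and between the last base of box D and the 3′ edge site (right, 22 peaks), coloured by list. The 3′ sites stand at 6 nt in 17 of 22 peaks, in all 3 lists.

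Peaks on box C/D snoRNAs had their largest median width in normal glucose. The median width was 101 nt for the galactose peaks, 112 nt for the low glucose peaks and 177 nt for the normal glucose peaks, against medians of 101, 102 and 101 nt over all peaks of these lists. With the 3 RPL13A snoRNAs counted too, the medians were 101, 104 and 120 nt, so the size of the difference depended on leaving them out. Peaks over 150 nt were 1 of the 5 galactose, 2 of the 6 low glucose and 8 of the 15 normal glucose peaks, while 14.2%, 14.0% and 20.0% of all peaks were that wide. Of the 8 wide peaks of normal glucose, 7 spanned the RNA with a site at both ends. The whole RNA was covered by 9 of the 26 peaks. Over all 26, the covered share of the RNA ran from 36.5% to 100%, with a median of 68.7% and SNORD3A taken at its RefSeq length.

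In 19 of 26 peaks the middle lay inside the RNA, and 11 peaks had a single site. RNase T1 leaves ends after G, so the base before the middle was read in the genome. It was G in 5 of the 11 single sites (45.5%, interval 16.7 to 76.6), against 256 of 627 single sites in other peaks (40.8%, 37.0 to 44.8). This difference is within counting error. Where reads began is not given in the lists, so the count cannot show whether the sites are T1 ends.

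The host genes were those annotated to the same peaks. Hosts that encode ribosomal proteins held 4 RNAs, with 0 galactose, 1 low glucose and 4 normal glucose peaks. Both SNORD83 copies lie in one of them, RPL3. Other protein coding hosts held 9 RNAs, with 3 galactose, 3 low glucose and 6 normal glucose peaks. Among them were RACK1 (a scaffold on the small ribosomal subunit) with SNORD96A, the translation initiation factor genes EIF4G1 and EIF4A1 with SNORD66 and SNORD10, and NOP53 (a factor of ribosome assembly) with SNORD23. HSPA8 held both U14 copies, PTCD3 (a protein of the mitochondrial ribosome) held SNORD94, CKAP5 (a microtubule polymerase) held SNORD67, and SNX5 (a sorting nexin) held SNORD17, whose peak was also annotated to OVOL2. The peak of SNORD10 also carried the names of the read-through gene SENP3-EIF4A1 and of an unnamed lncRNA gene.

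Non-coding hosts held 4 RNAs, with 1 galactose, 1 low glucose and 4 normal glucose peaks. SNORD22 lies in SNHG1, SNORD104 in SNHG25, and SNORD88A and SNORD88C in C19orf48, which GENCODE now lists as a transcribed pseudogene. SNORD13 and SNORD3A have transcription units of their own, with 1 peak in each list between them.

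Of the RNAs with a host, 15 lay in an intron of its canonical transcript, 70 to 5672 nt before the next exon, with a median of 103 nt. SNORD22 lay nearest, 70 nt before the exon that follows intron 9 of SNHG1, and SNORD17 farthest, in intron 1 of SNX5. The lists did not hold each snoRNA of a host. RPL3 had peaks on SNORD83A and SNORD83B but not on SNORD43, HSPA8 on SNORD14C and SNORD14D but not on SNORD14E, and C19orf48 on SNORD88A and SNORD88C but not on SNORD88B. SNHG1 carries 6 SNORD genes by GENCODE symbol, and of these SNORD22 alone had a peak. RACK1 carries SNORD95 beside SNORD96A without a peak on it.

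Some hosts also had peaks away from the box C/D snoRNA. EIF4A1 had 3 of them in the galactose list and 1 in each glucose list, all 5 on box H/ACA RNAs of the same gene, while its SNORD10 was in normal glucose alone. SNHG25 had 2, 1 and 0 such peaks in galactose, low and normal glucose, 2 of the 3 on a box H/ACA RNA, and its SNORD104 was again in normal glucose alone. RACK1 had 0, 2 and 2, and HSPA8 had 1 in normal glucose, none of them on a box H/ACA RNA. No such peak was found in any list for RPL3, SNHG1, PTCD3, NOP53, EIF4G1, CKAP5, SNX5, OVOL2 or C19orf48. A box C/D snoRNA and the other peaks of its host were thus not always in the same lists.

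Of 23 genes for proteins of box C/D particles and their assembly, NOP56 alone had peaks, so that the count was 1 in the galactose list, 1 in the low glucose list and 0 in the normal glucose list. Over all 20046 protein coding genes, the share with a peak was 1.10% in the galactose list, 1.54% in the low glucose list and 1.38% in the normal glucose list, and counts this small cannot be told from these shares. The peaks on NOP56, a core protein of the particle, were 2 in galactose and 1 in low glucose, all on the box H/ACA RNA SNORA51 in its intron. The list had also held CLUAP1, a protein of intraflagellar transport with 1 peak in low glucose, which was dropped from it after its values had been seen. No peak was found in any list on the genes of the core proteins FBL, NOP58 and SNU13. For comparison, the box H/ACA and scaRNA genes in all 3 lists were SCARNA2, SNORA64 and SNORA7A, 3 of 32, beside SNORD94 and SNORD22, 2 of 19.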

How the data were processed

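GAPDH CLIP-seq was available for 6 samples, 2 in each condition. Per the study's methods, PureCLIP called the crosslink sites, close sites were then merged, and each lone site was widened to a set length. The tools cutadapt and STAR and the build hg38 (GRCh38) are named in the submitters' processing notes. Tool versions are not given in the sources used here. The authors deposited 1 list per condition with the replicates joined, holding positions, Ensembl identifiers and symbols and no counts or scores. The depth is unknown.

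Peaks were read as 1-based with both ends included. Those overlapping by at least 1 nt were merged into regions. The bounds, strands and hosts of the snoRNAs came from GENCODE release 44, and the sequences from hg38. RefSeq (GRCh38.p14) gave other bounds, which were the same for 11 of 19 RNAs. Peaks were taken as recurrent if over 50% of their 30-mers recur in the genome. Merging and placement were tested on simulated lists. Python 3.11.15 was used with numpy 2.4.6, scipy 1.17.1, pysam 0.24.0 and matplotlib 3.10.9.

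The RNAs and gene lists were chosen with earlier results of these data known, and the edge sites, the 5 nt windows and the box distances after the positions had been seen. All members were named, with their hosts other than some that are not reported here, and of other genes only proteins of the box C/D particle with a peak or at its core, box H/ACA RNAs in all 3 lists and snoRNAs named beside them.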

Additional observations from a re-analysis of the deposited data

How the results depend on the processing

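No paired analysis was possible because the 2 samples of each condition were joined in 1 list, and for the same reason no replicate could be left out. Of 49 alternative values, 45 stayed within 1.5 times the main value. This bound is wide: it took in a rise from 6 to 9 low glucose peaks with the RPL13A snoRNAs counted too. For single sites, the count of G before the middle could not move with starts read as 0-based, since the base read stayed the same. With SNORD32A, SNORD33 and SNORD35A counted too, the regions in all 3 lists were 4, against 2 without them. With only peaks whose middle lay inside the RNA, galactose had 2 peaks on 2 RNAs, against 5 on 5, and the regions in all 3 lists were 1. Windows of 3 or 10 nt around the RNA ends, RefSeq bounds and starts read as 0-based were added after seeing the data and did not move the counts at the 3′ or 5′ end by over 1.5 times.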
